A study of Mus musculus with 6 samples.

Results

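The 37 integrin and laminin subunit genes examined here were every gene of a table of 43548 genes whose symbol names an integrin alpha subunit, an integrin beta subunit or a laminin alpha, beta or gamma chain. They comprised 26 integrin and 11 laminin genes. Expression was measured by RNA sequencing in Met-1 TripZ-200c cells, a mouse mammary carcinoma line of FVB/nJ background that came from an advanced MMTV-PyMT tumor, in which a mammary promoter drives a viral oncogene. The cells carry pTripZ-200c, a lentiviral vector with a red fluorescent protein that expresses the microRNA miR-200c when doxycycline (Dox) is added, and they are a clone selected by cell sorting for tight induction. The minus Dox group comprised 3 cultures treated with vehicle (water) for 48 h, and the plus Dox group comprised 3 cultures treated with 1 µg/mL doxycycline for 48 h. All 6 cultures carried the vector, and the comparison asked how subunit expression differed once miR-200c was induced. Cells with the empty vector and Dox were not analysed here, so the action of doxycycline itself and that of miR-200c cannot be told apart.

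Integrins are cell surface receptors that pair an alpha with a beta subunit and anchor cells to the extracellular matrix. The alpha subunit largely sets the ligand: alpha-3, alpha-6 and alpha-7 receptors bind laminins, alpha-1, alpha-2, alpha-10 and alpha-11 receptors bind collagens, and alpha-v, alpha-5, alpha-8 and alpha-IIb receptors bind matrix proteins that hold the tripeptide RGD, such as fibronectin. Laminins are trimers of an alpha, a beta and a gamma chain and form the main polymer of the basement membrane under epithelia. In the mammary gland, laminin receptors hold epithelial cells to this membrane, and alpha-6 beta-4 forms the core of the hemidesmosome, which joins it to keratin filaments. Members of the miR-200 family repress Zeb1 and Zeb2, transcription factors that silence epithelial genes.

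Values are FPKM, fragments per kilobase of transcript scaled to the number of mapped fragments, so levels can be compared between genes. The libraries summed to 800267 to 815139 FPKM with 16867 to 18012 genes above 0. Zeb1 fell from 41.8 ± 0.682 to 21.2 ± 2.05 FPKM and Zeb2 from 29.3 ± 1.43 to 8.29 ± 0.661 FPKM (mean ± SD, n = 3 cultures a group throughout). The Mir200c gene was listed at 0 in every library and so does not check the induction directly. Of 8 epithelial markers, Krt18 and Cldn3 were abundant and Krt19 was listed at 0 throughout. The list summed to between 200 and 206 FPKM without Dox and between 487 and 528 FPKM with Dox. Most of that rise was Krt18, at 91.2 to 96.4 FPKM without Dox and 364 to 400 FPKM with Dox. Cldn3 was at 108 to 112 FPKM without Dox and 118 to 124 FPKM with Dox. Epcam was at most 0.161 FPKM without Dox and 3.88 to 4.31 FPKM with Dox. Cdh1, at most 0.0776 FPKM without Dox and 0.554 to 1.24 FPKM with Dox, rose in the fit without a filter on low genes (log2 fold change 2.49, limma adjusted p = 0.013). Because these are bulk cultures, a change in the share of cells that express a gene and a change in RNA per cell cannot be told apart, and p-values measure the spread between cultures of 1 clone.

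The agent of the study and the letters it can pair with are shown first, since they set which subunits carry a match to the induced microRNA. Mature miR-200c-3p is encoded at chr6:124718324-124718346 on the minus strand (RefSeq, GRCm38.p6). Its seed, bases 2 to 8, is in capitals, as in the relatives of the miR-200 family. The seed of miR-200c-3p is shared by miR-200b-3p and miR-429-3p, whereas miR-141-3p and miR-200a-3p differ from it within the seed.
miR-200c-3p: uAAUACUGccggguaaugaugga
miR-200b-3p: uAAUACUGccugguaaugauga
miR-429-3p: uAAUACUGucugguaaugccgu
miR-141-3p: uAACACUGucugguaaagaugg
miR-200a-3p: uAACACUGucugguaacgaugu

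The letters complementary to the miR-200c seed, CAGTATT, were searched on the sense strand of the longest annotated 3′ UTR of each gene. They occurred in 6 of the 37 subunit genes (16.2%), compared with 13.9% of 21173 genes with an annotated 3′ UTR. Itgav, Lamc1, Itga1, Itga2 and Lamc3 each held 1 match and Itga4 held 2. Itgav and Lamc1 were the only members with a match that also fell with Dox, and their matches are printed with the seed match in capitals. The Itgav site lies at chr2:83803978-83804006 on the plus strand, 654 bases into a 3′ UTR of 3581 bases. The Lamc1 site lies at chr1:153218948-153218976 on the minus strand, 2508 bases into a 3′ UTR of 2551 bases.
Itgav site: taacaatggtaCAGTATTtttatatgaaa
Lamc1 site: taaaaagaaaaCAGTATTttatttataat

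Neither site was followed by an A, a base that often strengthens pairing by the silencing complex. Shares were also taken over the 10812 genes tested that have an annotated 3′ UTR, of which 16.9% held these letters. They occurred in 31.0% of the 964 such genes lower with Dox and 9.33% of the 847 higher with Dox. Of the 20 members tested, 4 (20.0%) held them. Itga1 and Itga2 did not pass the test, and Itga4 and Lamc3 stayed under 1 FPKM on average. A match of letters is a description of the sequence and was not tested as a binding site.

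Of the 37 genes, 20 averaged at least 1 FPKM over the 6 libraries and were tested with limma on log2(FPKM + 0.1) together with all 12879 genes at this level. A further 15 were detected below that level, and Lama1 and Itgad were listed at 0 in every library. With Dox, 4 subunits rose (Itgb4, Itga3, Itgb8 and Itga6) and 4 fell (Lamc1, Itga8, Itga5 and Itgav) at an adjusted p under 0.05. Each direction thus held 20% of the members tested, compared with 7.06% of all genes tested that were higher and 7.97% that were lower. The share of lower members rested mostly on calls near the threshold. With replicate number as a block in the fit, only Lamc1 of the 20 stayed lower, beside 704 of 12879 genes. Itgb4, Itga3 and Itga6 stayed higher in that fit, beside 633 genes. The libraries of the groups did not overlap for 12 of the 20 members (60%), compared with 35.0% of all genes with 6 values. Changes were small for most members: 2 of the 8 called exceeded 1.5-fold, both of them upward (Itgb4 and Itga3). The median log2 fold change of the members was -0.07, and that of all genes tested was 0.0039. Without minus Dox replicate 1 the median of the members was -0.116.

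**Figure D1:**
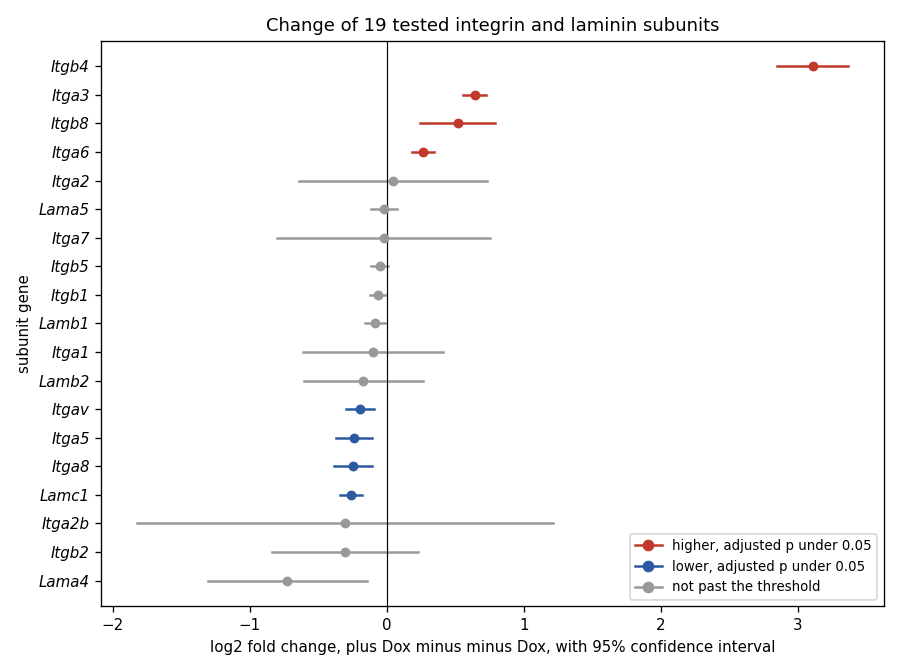
Log2 fold change (plus Dox minus minus Dox, horizontal axis) of 19 of the integrin and laminin subunits tested, each point with its 95% confidence interval from limma. Itgb4 stands apart at 3.11, Itga3, Itgb8 and Itga6 lie to the right of 0, and Itgav, Itga5, Itga8 and Lamc1 lie between -0.26 and -0.19.

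In the laminin-binding class, 3 of the 4 subunits (Itga3, Itga6 and Itgb4) rose with Dox and Itga7 did not pass. Itgb4 encodes the long-tailed beta subunit that pairs with alpha-6 alone and builds hemidesmosomes. It measured 3.48, 4.45 and 3.48 FPKM in the minus Dox cultures and 32.8, 35.0 and 32.2 FPKM in the plus Dox cultures. Every culture with Dox lay far above every culture without it. The log2 fold change was 3.11 (SE 0.111, limma adjusted p = 1.6e-05), or 8.61-fold, and it ranked 18th among the increases of all 12879 genes tested.

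Itga3 encodes alpha-3, which joins beta-1 in the main receptor for laminin-332 and laminin-511. It measured 272.5, 274.2 and 281.4 FPKM without Dox and 412.8, 445.5 and 433.1 FPKM with Dox. It was the most abundant integrin alpha subunit in both groups, and the lowest culture with Dox exceeded the highest without. The log2 fold change was 0.64 (SE 0.0353, limma adjusted p = 1.1e-04), or 1.56-fold. Itga6, the alpha subunit shared by alpha-6 beta-1 and alpha-6 beta-4, measured 91.2, 91.3 and 90.2 FPKM without Dox and 106.7, 110.3 and 111.03 FPKM with Dox. The groups did not overlap, and the rise was modest at 0.27 on the log2 scale (SE 0.0338, limma adjusted p = 0.0031). The calls of Itgb4, Itga3 and Itga6 held in all 15 alternative settings.

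Itga7, the laminin receptor subunit of muscle, was close to the detection filter in both groups. It measured 0.871, 1.71 and 1.21 FPKM without Dox and 1.13, 1.38 and 1.12 FPKM with Dox. The groups overlapped, and the 95% confidence interval of its log2 fold change ran from -0.80 to 0.75. Among the laminin-binding subunits, then, the levels kept the order Itga3, Itga6, Itgb4 and Itga7 in both groups, and the gap between Itga6 and its partner Itgb4 narrowed. Their FPKM ratio was 26.2, 20.5 and 25.9 in the minus Dox cultures and 3.26, 3.16 and 3.44 in the plus Dox cultures.

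**Figure D2:**
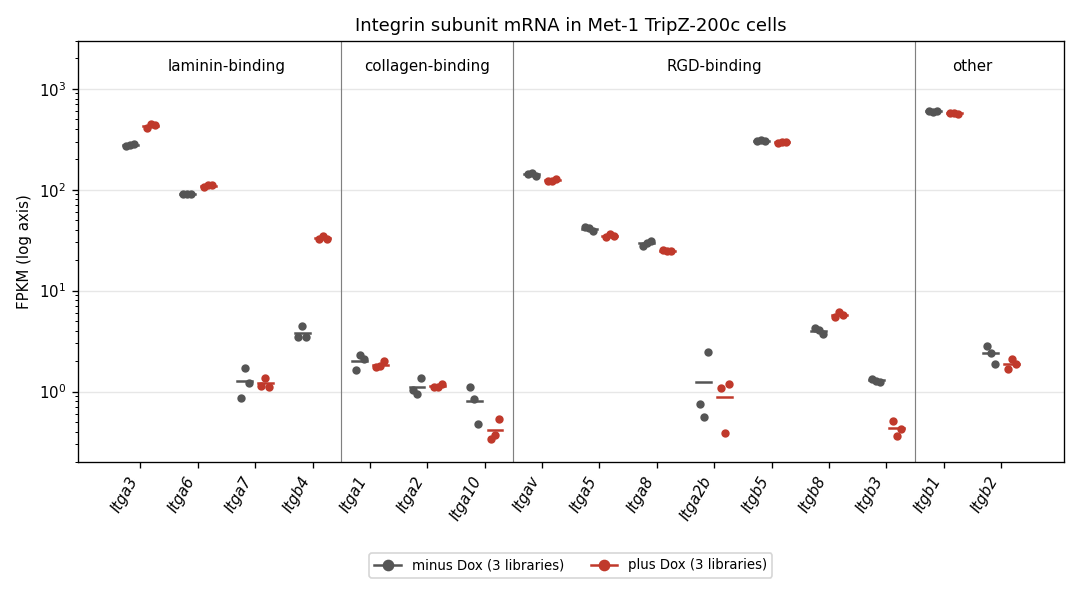
FPKM (log axis) of the 16 integrin subunits with the highest levels, grouped by ligand class, with 1 point for each culture (grey minus Dox, red plus Dox) and a bar at the group mean. Itgb4 moved from 3.81 to 33.3 FPKM on average, whereas the abundant Itgb1 and Itgb5 stayed near 599 and 306 FPKM without Dox and 574 and 295 FPKM with Dox.

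In the RGD-binding class calls went in both directions. Of 8 subunits in this class 6 were tested, of which 3 alpha subunits (Itgav, Itga5 and Itga8) fell, 1 beta subunit (Itgb8) rose and 2 (Itgb5 and Itga2b) did not pass. Itgav encodes alpha-v, the common partner of the beta-3, beta-5, beta-6 and beta-8 chains. It measured 143.8, 147.4 and 135.1 FPKM without Dox and 123.0, 121.8 and 127.9 FPKM with Dox. All 3 cultures with Dox were lower than any without. The log2 fold change was -0.19 (SE 0.0434, limma adjusted p = 0.027).

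Itga5 encodes alpha-5, whose only partner is beta-1 and which is the classical fibronectin receptor. It averaged 41.2 ± 2.13 FPKM without Dox and 34.9 ± 1.27 FPKM with Dox (log2 fold change -0.24, limma adjusted p = 0.032). Itga8 encodes alpha-8, a receptor for nephronectin and fibronectin. It measured 27.5, 29.8 and 30.8 FPKM without Dox and 25.0, 24.6 and 24.6 FPKM with Dox. Here too the groups did not overlap, and the log2 fold change was -0.25 (SE 0.0580, limma adjusted p = 0.032).

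Itgb8 encodes the beta subunit of alpha-v beta-8, a receptor that activates latent TGF-beta. It measured 4.29, 4.05 and 3.70 FPKM without Dox and 5.52, 6.17 and 5.67 FPKM with Dox, with no overlap. The log2 fold change was 0.52 (SE 0.116, limma adjusted p = 0.027). The calls of Itgav, Itga5, Itga8 and Itgb8 lay near the threshold. Leaving out 1 library ended the call of Itgav and Itga5 in 5 of 6 fits, all but that without minus Dox replicate 3, with adjusted p up to 0.0849 for Itgav and 0.103 for Itga5. Likewise Itga8 and Itgb8 kept the call only without minus Dox replicate 1, with adjusted p up to 0.0989 and 0.0988 in the other fits.

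Itgb5, a vitronectin receptor chain, was the most abundant RGD-binding subunit and did not pass the test. It averaged 306 ± 4.22 FPKM without Dox and 295 ± 3.42 FPKM with Dox, and the 95% confidence interval of its log2 fold change was -0.11 to 0.01 (limma adjusted p = 0.26). Itga2b, the alpha subunit of the platelet fibrinogen receptor, spread from 0.561 to 2.44 FPKM without Dox and from 0.387 to 1.195 FPKM with Dox (limma adjusted p = 0.80). Of 4 platelet markers, Pf4 and Gp1ba were listed at 0 in all libraries, Ppbp ranged from 0.410 to 1.02 FPKM and Gp9 from 0.0994 to 0.923 FPKM over all cultures.

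Itgb3, the beta chain of the alpha-v beta-3 vitronectin receptor, averaged under the filter. It measured 1.33, 1.27 and 1.26 FPKM without Dox and 0.516, 0.361 and 0.430 FPKM with Dox. The lowest culture without Dox was thus above every culture with Dox. In the fit of 20513 genes without the filter, its log2 fold change was -1.38 (SE 0.263, limma adjusted p = 0.031). That call was lost without any 1 of the 6 libraries, with adjusted p between 0.0512 and 0.0816. The FPKM ratio of Itgb5 to Itgb3 was 238 ± 7.62 without Dox and 693 ± 131 with Dox. Itgb6, the epithelial partner of alpha-v, reached at most 0.231 FPKM and was listed at 0 in minus Dox replicates 1 and 2.

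Collagen-binding integrins were scarce in both groups. Itga1 averaged 2.01 ± 0.335 FPKM without Dox and 1.85 ± 0.141 FPKM with Dox (limma adjusted p = 0.80). Itga2, the collagen receptor chain typical of epithelia and platelets, averaged 1.12 ± 0.216 and 1.14 ± 0.0464 FPKM (limma adjusted p = 0.94). The groups overlapped for both genes, and the 95% confidence intervals of their log2 fold changes were -0.61 to 0.41 and -0.64 to 0.73. Itga10, the cartilage collagen receptor, was below the filter at 1.0997, 0.849 and 0.481 FPKM without Dox and 0.340, 0.367 and 0.537 FPKM with Dox, and 34.5% of its longest transcript is near-identical to the gene model Gm42957. Itga11, known from fibroblasts, ranged from 0.0902 to 0.158 FPKM without Dox and from 0.205 to 0.321 FPKM with Dox, and did not pass in the unfiltered fit (limma adjusted p = 0.26).

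Itgb1, the beta subunit shared by most laminin, collagen and fibronectin receptors, was the most abundant of all 37 genes. It measured 602.0, 590.1 and 605.8 FPKM without Dox and 580.1, 577.8 and 563.9 FPKM with Dox. The groups did not overlap, but the log2 fold change of -0.06 (95% confidence interval -0.12 to -0.0035) did not pass (limma adjusted p = 0.15). Of the 7 leukocyte subunits only Itgb2, the common beta-2 chain, averaged over 1 FPKM, at 2.39 ± 0.486 without and 1.89 ± 0.228 with Dox (limma adjusted p = 0.43). Its alpha partners were near the floor: Itgal, Itgam and Itgax reached at most 0.045, 0.222 and 0.0357 FPKM, and Itgad was listed at 0. The leukocyte marker Ptprc was at most 0.161 FPKM, Cd3e was listed at 0, and Cd68 alone of this marker list averaged above 1 FPKM, at 6.31 to 11.3 FPKM without Dox and 6.54 to 7.55 FPKM with Dox. Itgb7 and Itgae, which pair in mucosal lymphocytes, stayed at or below 0.433 and 0.0857 FPKM. Itga4 and Itga9, receptors for VCAM-1 and related ligands, stayed at or below 0.195 and 0.0301 FPKM.

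Because levels are per length, the subunits can be read as a mixture. All alpha subunits together summed to 584, 591 and 584 FPKM without Dox and to 707, 744 and 738 FPKM with Dox. The laminin-binding alphas made up 62.5%, 62.1% and 63.8% of this sum in the minus Dox cultures and 73.6%, 74.9% and 73.9% in the plus Dox cultures. The RGD-binding alphas made up 36.8%, 37.1% and 35.5% and then 25.9%, 24.6% and 25.5%. The alpha mRNA mixture of every culture with Dox therefore lay further towards laminin-binding subunits than that of any culture without. With 3 cultures against 3, an exact two-sided permutation test cannot give a p below 0.1, so no p is given for these shares. In summed FPKM, which is itself relative to the mapped fragments of each library, the laminin-binding alphas went from 368 ± 4.23 to 541 ± 18.6. The RGD-binding alphas went from 214 ± 6.25 to 185 ± 3.00 FPKM. Most of the laminin-binding rise was Itga3, from 276 ± 4.72 to 430 ± 16.5 FPKM. Itga6 went from 90.9 ± 0.567 to 109 ± 2.32 FPKM. Pairwise, Itga3 was 6.72 ± 0.471 times the level of Itga5 without Dox and 12.3 ± 0.193 times with Dox, and 1.95 ± 0.120 and 3.47 ± 0.167 times that of Itgav.

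**Figure D3:**
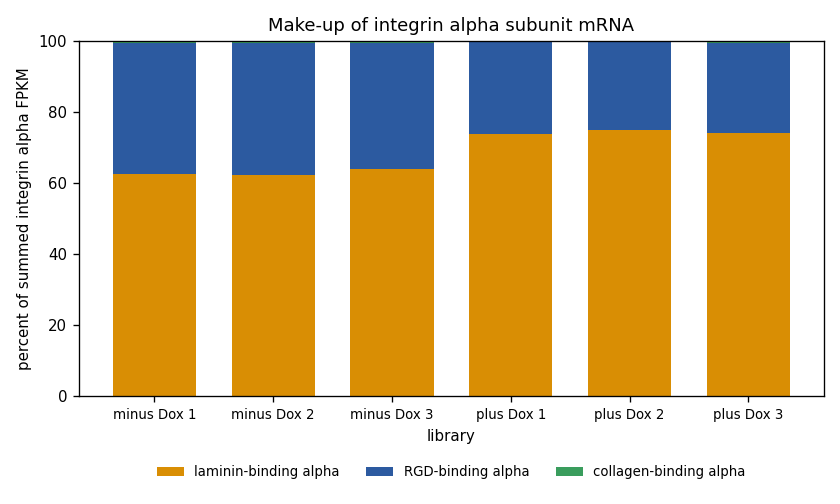
Percent of the summed integrin alpha FPKM held by laminin-binding, RGD-binding and collagen-binding subunits in each of the 6 cultures (stacked bars). The laminin-binding part was 62.1 to 63.8% in the minus Dox cultures and 73.6 to 74.9% in the plus Dox cultures, and the collagen-binding part was under 1% in every culture.

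The beta subunits summed to a similar total in both groups, 917 ± 3.58 FPKM without Dox and 911 ± 10.2 FPKM with Dox. Itgb1 held 65.4 ± 0.657% of that total without Dox and 63.0 ± 0.493% with Dox. Itgb4 held 0.415 ± 0.0627% and then 3.66 ± 0.123%. At its higher level Itgb4 was still at a lower FPKM than Itga6 in each culture with Dox.

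Laminin chains form the ligands of receptors built from Itga3, Itga6 and Itgb4, the laminin-binding subunits whose mRNA rose. Of 11 chains 6 were tested, of which 1 fell (Lamc1), none rose and 5 did not pass. These are 16.7% lower and 0% higher, compared with 7.97% and 7.06% of all genes tested, and 6 chains are few for such a share. Lamc1 encodes gamma-1, the gamma chain of most laminins. It measured 104, 100 and 102 FPKM without Dox and 84.6, 86.6 and 84.1 FPKM with Dox, so that the groups were clearly apart. The log2 fold change was -0.26 (SE 0.0349, limma adjusted p = 0.0038), and this call held in all 15 alternative settings. Lamc3, a gamma chain of restricted distribution, stayed at or below 0.725 FPKM.

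Lama5, which encodes the alpha-5 chain of epithelial basement membrane, supplied nearly all laminin alpha mRNA. It averaged 121 ± 1.97 FPKM without Dox and 120 ± 4.88 FPKM with Dox, and the 95% confidence interval of its log2 fold change was -0.11 to 0.08 (limma adjusted p = 0.80). Its share of summed laminin alpha FPKM was 97.0 ± 0.288% without Dox and 98.1 ± 0.344% with Dox. Lama4, the alpha-4 chain of vessels and mesenchyme, measured 2.84, 3.67 and 3.31 FPKM without Dox and 1.85, 2.63 and 1.47 FPKM with Dox. The groups did not overlap, but the log2 fold change of -0.72 (SE 0.246) did not pass (limma adjusted p = 0.099). Lama3, the alpha chain of laminin-332, ranged from 0.235 to 0.563 FPKM over all cultures, Lama2 was at or below 0.0411 FPKM, and Lama1 was listed at 0.

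Among the beta chains, Lamb1, the widespread beta-1 chain, measured 192.1, 201.5 and 195.3 FPKM without Dox and 185.6, 185.6 and 184.5 FPKM with Dox. These cultures did not overlap either, and the log2 fold change of -0.08 did not pass (limma adjusted p = 0.12). Lamb2, beta-2, showed a wide spread with Dox, at 62.9, 61.9 and 54.7 FPKM without and 39.2, 67.6 and 56.5 FPKM with Dox (limma adjusted p = 0.60). Lamb3, the beta-3 chain found only in laminin-332, measured 0.263, 0.0220 and 0.0619 FPKM without Dox and 0.486, 1.68 and 1.04 FPKM with Dox. Every culture with Dox was higher, yet the values varied widely within each group. In the unfiltered fit the log2 fold change was 2.46 (SE 0.592, limma adjusted p = 0.064), which did not pass.

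**Figure D4:**
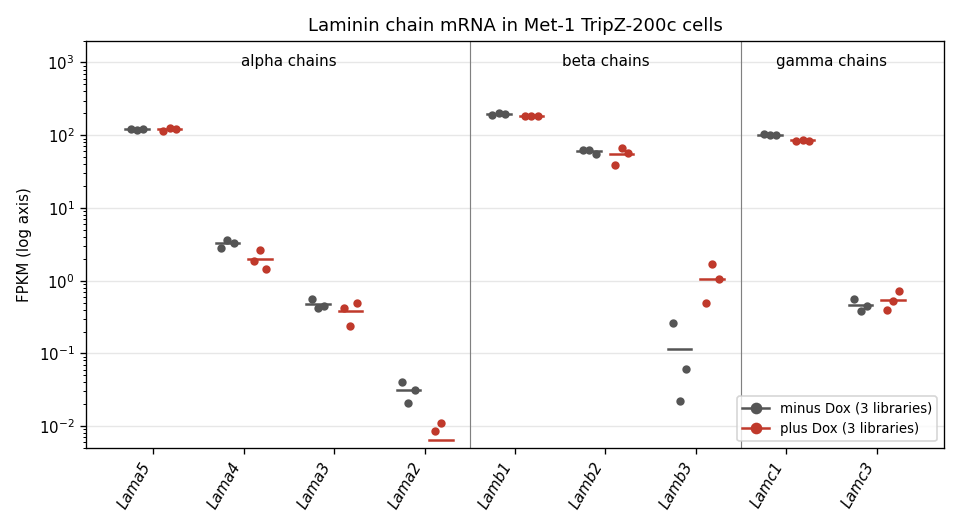
FPKM (log axis) of 9 laminin chains, with 1 point for each culture (grey minus Dox, red plus Dox) and a bar at the group mean. Lama1 was listed at 0 and is not drawn, nor is plus Dox replicate 3 of Lama2, which was 0. Lama5, Lamb1 and Lamc1 lie near or above 100 FPKM, and Lamb3 moved from 0.116 to 1.07 FPKM on average.

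For 3 known laminin trimers, the chain with the lowest mRNA level was noted, although protein was not measured here. For laminin-511 (alpha-5, beta-1, gamma-1) that chain was Lamc1 in all 6 cultures, the chain that fell. For laminin-521 it was Lamb2 and for laminin-411 it was Lama4 in all 6 cultures. The lowest chain of laminin-511 averaged 102 FPKM without Dox and 85.1 FPKM with Dox.

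Genes that work with these receptors were read from 4 lists. Among 33 tested integrin activators and adhesion adaptors, 6 rose and 9 fell, with a median log2 fold change of -0.11. For this list and the 3 that follow, the share over all genes tested is again 7.06% higher and 7.97% lower. Src, a kinase of the adhesion complex, rose from 84.3 ± 6.54 to 157 ± 3.77 FPKM (log2 fold change 0.90, SE 0.0581, limma adjusted p = 2.0e-04). Actn4 and Vcl, which encode the actin linkers alpha-actinin-4 and vinculin, rose by 0.55 and 0.26 on the log2 scale. Tln2, a talin that switches integrins on, fell from 15.7 ± 0.304 to 8.89 ± 0.543 FPKM (log2 fold change -0.81, SE 0.0739, limma adjusted p = 7.3e-04). The adaptors Git2 and Lims2 fell by 0.41 and 0.50, and the call of Lims2 was lost without any 1 of the 6 libraries (adjusted p 0.0780 to 0.116).

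Among 11 tested basement membrane partners of laminin, 2 rose and 4 fell, and the median was -0.03. Sdc1, a cell surface proteoglycan that binds laminin, rose by 0.27, and Lgals3, a galectin that binds its sugars, rose by 0.13, a call that was lost without any 1 of the 6 libraries (adjusted p 0.0521 to 0.121). Col4a5, a collagen IV chain of the basement membrane, fell from 54.8 ± 0.130 to 36.4 ± 0.449 FPKM (log2 fold change -0.59, SE 0.0391, limma adjusted p = 2.1e-04). Tinagl1 and Sparc, which encode secreted proteins of the basement membrane, fell by 0.29 and 0.25. Nid1 and Nid2, which encode linkers of laminin to collagen IV, were near the floor, a choice of genes made after their values were seen. Nid1 averaged 0.199 FPKM without Dox and 0.162 FPKM with Dox, and Nid2 was listed at 0. Hspg2, a basement membrane proteoglycan of the same list, averaged 80.2 FPKM without Dox and 75.1 FPKM with Dox and did not pass (limma adjusted p = 0.21).

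Among 18 tested integrin ligands other than laminin, 6 rose and 5 fell, and the median was -0.01. Npnt, which encodes nephronectin, the ligand of alpha-8 beta-1, rose from 22.8 ± 0.800 to 40.5 ± 0.289 FPKM (log2 fold change 0.82, SE 0.0485, limma adjusted p = 1.4e-04), while Itga8 fell. Thbs1, thrombospondin-1, and Cyr61, a matricellular ligand of alpha-v receptors, rose by 0.82 and 0.49. Nov, a relative of Cyr61, fell by 0.72 and Spp1, which encodes the RGD protein osteopontin, fell by 0.33, from 2823 to 2253 FPKM. Tgfbi, an RGD-bearing matrix protein, fell by 0.92 at a mean of 2.50 FPKM without Dox, a call that was lost without any 1 of the 6 libraries (adjusted p 0.0635 to 0.119). Fn1, fibronectin, did not pass (limma adjusted p = 0.37), and its fit rests on 2 cultures a group because replicate 3 of each held a placeholder.

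The fourth list held 8 tested partners of hemidesmosomes and tetraspanins, of which 0 rose and 2 fell, with a median of -0.08. The genes that fell were the tetraspanins Cd63 (log2 fold change -0.40, SE 0.0555, limma adjusted p = 0.0046) and Tspan4 (-0.28, SE 0.0481, limma adjusted p = 0.0096). The other hemidesmosome components are given here because Itgb4 rose, a choice made after their values were seen. Plec, the plectin that ties beta-4 to keratin, averaged 141 and 134 FPKM without and with Dox (log2 fold change -0.07, limma adjusted p = 0.18). Dst, which encodes the plakin BPAG1, averaged 208 and 199 FPKM (-0.07, limma adjusted p = 0.23), and Cd151, the tetraspanin of laminin receptors, 251 and 230 FPKM (-0.13, limma adjusted p = 0.10). Col17a1, the transmembrane hemidesmosome collagen, averaged 0.364 and 0.234 FPKM and was not past the threshold in the unfiltered fit. Of the basal markers, Krt5 was listed at 0, Krt14 reached at most 0.154 FPKM and Trp63 lay between 1.31 and 2.09 FPKM over all cultures.

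**Figure D5:**
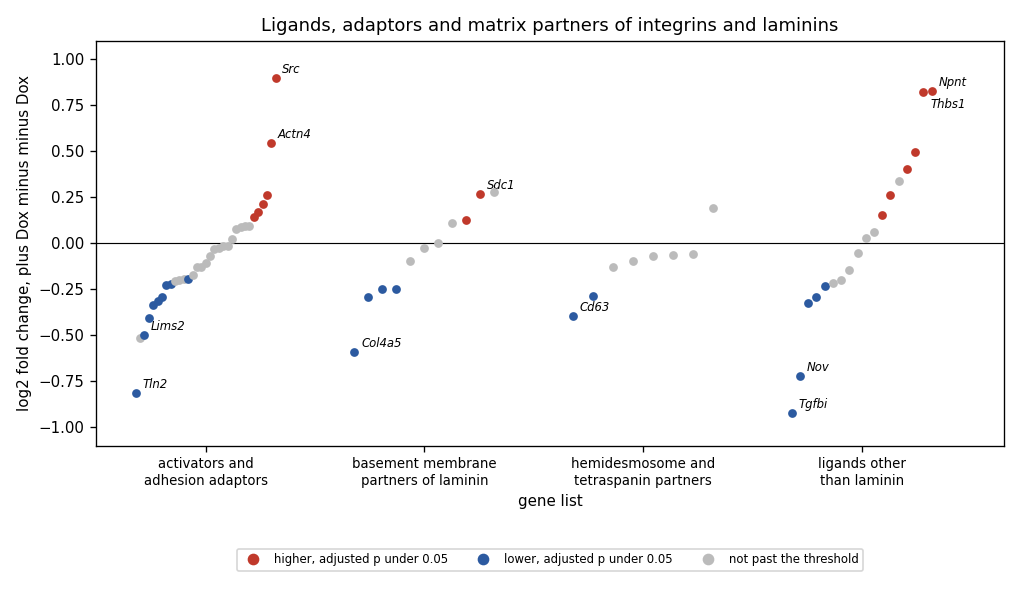
Log2 fold change (plus Dox minus minus Dox, vertical axis) of the 70 tested partner genes in 4 lists, with 1 point for each gene ordered by value, colored by the limma call. Called genes lie on both sides of 0 in 3 lists, and the hemidesmosome and tetraspanin list holds 2 lower and 0 higher genes.

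Promoter letters were compared because Zeb factors bind E-boxes. The E-box letters CACCTG and CAGGTG, which are each other's reverse complement, were searched in RefSeq windows (GRCm38.p6) of 300 bases, from 250 before to 50 after a start site. They occurred in 8 of 26 windows of the members (30.8%), compared with 20.2% of 32851 windows of all genes. Of the 23 members with a window, the 8 with these letters were Itga3, Itga9, Itga11, Itgb5, Itgb6, Itgb8, Lama5 and Lamb3. The members without a window included Itgb4, Itga6, Itgb3 and Lamc1. Itga3 and Itgb8 are printed since they hold the letters and rose, with the E-box in capitals, 5′ to 3′ in the direction of transcription. The Itga3 window is chr11:95076665-95076964 on the minus strand with the E-box at position -195 from the start site, and the Itgb8 window is chr12:119238227-119238526 on the minus strand with the E-box at position -62.
Itga3 promoter: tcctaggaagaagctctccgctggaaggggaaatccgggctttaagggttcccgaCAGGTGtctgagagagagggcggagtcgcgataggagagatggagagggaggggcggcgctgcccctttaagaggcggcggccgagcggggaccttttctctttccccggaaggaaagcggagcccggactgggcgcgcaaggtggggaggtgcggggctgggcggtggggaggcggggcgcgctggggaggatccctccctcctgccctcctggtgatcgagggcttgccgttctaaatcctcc
Itgb8 promoter: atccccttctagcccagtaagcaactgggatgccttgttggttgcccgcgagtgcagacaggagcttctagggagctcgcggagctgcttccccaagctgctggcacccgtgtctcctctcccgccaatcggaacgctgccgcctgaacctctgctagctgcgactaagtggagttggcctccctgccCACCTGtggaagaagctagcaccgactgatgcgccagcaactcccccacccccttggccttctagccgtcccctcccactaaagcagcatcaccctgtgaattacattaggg

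A second Itga3 window, chr11:95069149-95069448, held none of these letters. Itgb5 and Lama5 also held them and did not pass the test. The share among genes higher or lower with Dox was not counted, and binding at these letters was not tested. In mouse genome coordinates (GRCm38, GENCODE), Itga3 spans chr11:95044474-95076801 and Itgb4 chr11:115974709-116008412, on opposite strands of the same chromosome. Itga6 spans chr2:71745616-71858416 and Itgav chr2:83724397-83806916, both on the plus strand. Lamc1 spans chr1:153218922-153332786 on the minus strand. Near-identical sequence also linked Itgb5 to the gene model Gm38317 (10.5% of its longest transcript), Itga6 to Gm29397 (7.6%) and Itga1 to Gm49395 (6.2%). It likewise linked Itgb2 to Gm14699 (7.7%) and Itgam to Gm49368 (73.8%). The levels of these genes are therefore uncertain, by an amount that was not tested. On the antisense strand it linked Itga4 to Cerkl (11.6%) and Itga8 to E030013I19Rik (6.0%), which matters only if counting ignored strand. For Itgb4, 5.4% of the longest transcript is shared with the antisense gene model B230344G16Rik, and the sources used here do not say whether the counting used strand.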

How the data were processed

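Total RNA of Met-1 TripZ-200c cultures was sequenced by the authors as single 50-base reads from a TruSeq Stranded kit on a HiSeq4000. Reads were mapped with gSNAP to GRCm38.p6 (an FVB genome is also named), and the deposited FPKM values, estimated by the authors with Cufflinks, are normalized for transcript length and mapped reads. Versions, read totals and the use of strand in counting are not given in the sources used here. The deposited means, fold changes, p-values and q-values are the authors' own and were not used.

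The table held 43611 rows and 43548 gene identifiers. The 63 repeated rows were dropped, and a placeholder of 999999999 in 6 places (4 genes, Fn1 among them) was treated as missing. No member symbol was repeated. The results of 1 member and 1 marker are not reported here, though the counts include them. Library depth relative to minus Dox replicate 1, estimated from the spacing of low FPKM values, ran from 0.918 to 1.49. FPKM hold no counts, so no counting interval is given.

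The 12879 genes averaging 1 FPKM or more were fitted on log2(FPKM + 0.1) with limma 3.58.1 (R 4.3.3, eBayes with trend, no covariate), plus Dox minus minus Dox, with Benjamini-Hochberg adjustment over all genes and a threshold of 0.05. Fold changes are on the log2(FPKM + 0.1) scale, which understates changes of low genes. Members below the filter were read from the same fit without it (20513 genes). The study named an analysis of variance per gene, of which limma is the moderated form. Groups came from the sample titles. The script was tested on simulated data.

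Named were every member averaging 1 FPKM or more and, in each partner list, the 3 called genes that rose most and the 3 that fell most. The members and lists were chosen with earlier results of these data known. Positions, 3′ UTRs and shared sequence came from GENCODE (GRCm38, BLAST 2.17.0, at least 95% identity over 50 bases), and microRNAs and promoters from RefSeq. Python 3.11.15, numpy 2.4.6, pandas 2.3.3 and matplotlib 3.10.9 were used. In all, 15 alternatives were run, covering pseudocounts of 1 and 0.01, a filter of 5 FPKM or none, libraries scaled to equal medians or quantile-normalized, limma fitted with no trend, an unmoderated linear model, a replicate block and leaving out each of 6 libraries.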

Additional observations from a re-analysis of the deposited data

How the results depend on the processing

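The number of members higher with Dox was 4 and stayed at 3 or 4 in the 15 alternatives, and Itgb4, Itga3 and Itga6 passed in each of them. The number lower was 4. It was 2 with limma without the trend, 1 with the unmoderated linear model on log2(FPKM + 1), 1 with the replicate block and between 1 and 3 with 1 library left out. Over all genes tested, the number lower was 1026 in the main fit. That number was 830, 692 and 704 in the same 3 fits and 577 to 699 with 1 library left out. Lamc1 passed throughout. In the fit with replicate number as a block, Itgav (adjusted p = 0.076), Itga5 (0.066), Itga8 (0.076) and Itgb8 (0.072) lost the call, as did Itgb3 in the unfiltered fit (0.12). Libraries with the same number deviated from their group mean with correlations of -0.00759 to 0.0359 and minus Dox replicate 3 did not correlate best with its own number. The libraries share only a number, so a call lost under the block does not show a smaller difference. Without the filter, Itgb8 lost the call and Itgb3 gained one, giving 3 higher and 5 lower members, and the minimum of 5 FPKM left 13 members in the test. Quantile normalization and scaling to the same median shifted the median of all genes by -0.0016 and 0.0015 on the log2 scale and changed no member's call.

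The median log2 fold change of the members was -0.07 and ran from -0.116 (without minus Dox replicate 1) to -0.0516 with 1 library left out. The number of partner genes called was 34 and ran from 26 to 34. Over all genes tested the calls were 1935 and ran from 1048 to 1992, with 1495 for limma without the trend, 1290 for the unmoderated model, 1337 with the block and 1048 without plus Dox replicate 3. No called member changed direction in any alternative. Among the members near or under 1 FPKM, Itga2, Itga7, Itga2b and Lamb3 had log2 standard errors of 0.29 to 0.64. Some others at such levels had smaller ones, such as Itgb3 (0.263) and Lama2 (0.169) in the unfiltered fit. The cause of the spread was not tested.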
